A study of Mus musculus with 9 samples.

Results

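The 38 genes described here belong to the 4 Hox clusters of the mouse, 10 each in Hox A and Hox B and 9 each in Hox C and Hox D. Chromatin accessibility at these clusters was measured in mouse embryonic stem cells by ATAC-seq, which uses a transposase to cut and tag DNA where it is open. A counted region was taken as a Hox region when it lay in the RefSeq span of a member gene or within 10 kb of it, and it was assigned to the nearest member. This gave 158 regions out of 157497, of which 102 lay in a member gene and 56 outside. Hox A and Hox B held 44 regions each, Hox C 37 and Hox D 33. Every one of the 38 genes had between 1 and 11 regions, and all 158 passed the filter on low counts. Of the regions nearest the limit, those of Hoxb9 and Hoxa13 lay inside at 9448 bp and 9589 bp, and those of Hoxc13 and Hoxd13 lay outside at 10129 bp and 10137 bp. For 5 of the 158 regions another gene that is no member was nearer still.

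The 9 libraries formed 3 groups of 3. NanogKO cells lack Nanog and are given the line name N{delta}. NanogKO:Esrrb and NanogKO:Esrrb:Nanog cells share the line name N{delta}:cE:iN and are labelled as NanogKO with Esrrb, or with Esrrb and Nanog, added. Each comparison with NanogKO was therefore also one between differently named lines, and each group also carries a code of its own (44C6, 44J and 44JN). How Esrrb and Nanog were added is not given in the labels. In what follows, the Esrrb comparison is NanogKO:Esrrb against NanogKO, the combined comparison is NanogKO:Esrrb:Nanog against NanogKO, and the Nanog comparison is NanogKO:Esrrb:Nanog against NanogKO:Esrrb. The cells had no treatment, grew in serum medium (10% serum) with 1000 U/ml of leukaemia inhibitory factor, and were sorted as positive for PECAM and negative for PDGFRA. NANOG and ESRRB both bind DNA and help keep stem cells undifferentiated, and the series title asks how ESRRB balances self-renewal and differentiation.

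Hox genes encode homeodomain transcription factors that give cells their position along the body axis. Within a cluster they lie in the order in which they are used, low-numbered genes early and toward the head, high-numbered genes late and toward the tail. In embryonic stem cells the clusters are known to be held silent by Polycomb complexes over CpG-rich DNA, and retinoic acid, WNT signals and CDX factors open them during differentiation. Paralogues, the genes with the same number in different clusters, descend from a common ancestor. Accessibility is not expression, and no RNA was measured in these libraries.

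Total counts ranged from 35545030 to 58520948 per library, and Hox regions took 0.101% to 0.122% of them. A single Hox region held between 16 and 1332 counts in a library. Whether replicates came from separate cultures is not in the labels, so p-values here measure only how far these libraries differ, and that spread may be technical. NanogKO:Esrrb:Nanog replicate 3 stood apart from the others of its group at the Hox clusters and over all regions. Over all regions, the chi-square per region, which grows as the counts of 2 libraries differ, was 9.49 and 7.14 against replicates 1 and 2. It was 4.81 between those replicates, and at most 6.38 within the other groups. Counts of called regions and the overlap of the cluster sums are also given without NanogKO:Esrrb:Nanog replicate 3. Levels were also read at regions of 7 genes of undifferentiated stem cells (such as Pou5f1, Sox2 and Zfp42). They were 423 to 457 CPM (library-scaled counts, summed) in NanogKO, 550 to 595 in NanogKO:Esrrb and 615 to 673 in NanogKO:Esrrb:Nanog. Over the same groups, summed levels at 7 primitive endoderm genes were 366 to 394, 294 to 336 and 327 to 345 CPM, and at 7 neural genes 480 to 523, 400.2 to 446 and 461 to 509.5 CPM. Levels at 5 trophoblast genes were 292 to 309.8, 283 to 304 and 309 to 328 CPM. Among 7 mesendoderm genes, of which T had no counted region, levels were 244 to 269, 224 to 236 and 234 to 252 CPM. These sums depend on the number of regions, 48, 41, 47, 47 and 24 for the lists in the order above. Any counted region adds to them, so they do not check the label of the cells. The part of these marker regions in the Hox results was not tested.

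Summed over each cluster, the libraries of the groups overlapped in every comparison, with the replicate numbers set aside. Hox A had 317, 304 and 283 CPM in NanogKO replicates 1 to 3, 315, 280.3 and 293 CPM in NanogKO:Esrrb, and then 364, 330.3 and 276 CPM in NanogKO:Esrrb:Nanog. The highest and the lowest of these 9 values were both in NanogKO:Esrrb:Nanog. Hox B had 285, 246 and 242 CPM in NanogKO, then 258, 229 and 225 CPM in NanogKO:Esrrb, and then 319.9, 278 and 234 CPM in NanogKO:Esrrb:Nanog. Hox C had 293, 263 and 263 CPM in NanogKO, then 267, 241 and 240.3 CPM in NanogKO:Esrrb, and then 332, 312 and 260.3 CPM in NanogKO:Esrrb:Nanog. In Hox C replicates 1 and 2 of NanogKO:Esrrb:Nanog lay above the 6 libraries of the other groups, and replicate 3 lay below the 3 of NanogKO. Hox D had 296, 289 and 263 CPM in NanogKO, then 275, 245 and 267 CPM in NanogKO:Esrrb, and then 311, 287 and 256 CPM in NanogKO:Esrrb:Nanog. As means ± SD (n = 3), the 3 groups in this order gave 301 ± 16.9, 296 ± 17.6 and 323 ± 44.1 CPM in Hox A and 257 ± 24.0, 237 ± 17.7 and 277 ± 43.0 CPM in Hox B. In Hox C they gave 273 ± 17.2, 249.5 ± 15.03 and 301 ± 36.8 CPM, and in Hox D 283 ± 17.1, 262 ± 15.6 and 285 ± 27.4 CPM. Read by replicate number, Hox B and Hox C were lower in NanogKO:Esrrb than in NanogKO and higher in NanogKO:Esrrb:Nanog than in NanogKO:Esrrb in 3 of 3 pairs, while in Hox A and Hox D 2 of 3 pairs went this way in each comparison. These sums were not tested. In all 4 clusters replicate 1 was the highest library of each group, and replicate 3 was the lowest of NanogKO:Esrrb:Nanog. Without that replicate 3, the NanogKO:Esrrb:Nanog libraries lay above those of NanogKO:Esrrb in all 4 clusters. They then lay above NanogKO in Hox A and Hox C, and still overlapped with NanogKO in Hox B and Hox D.

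**Figure D1:**
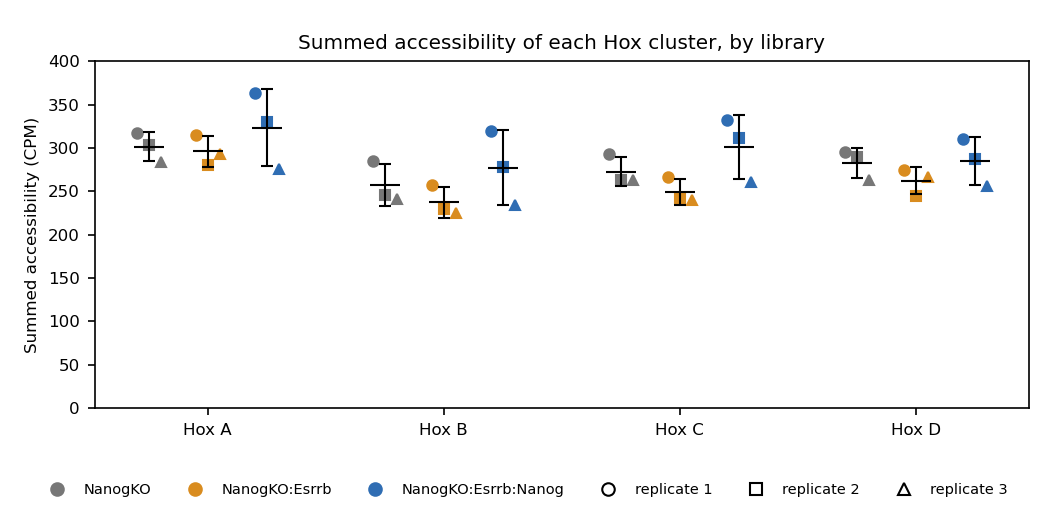
Summed accessibility (CPM, vertical axis from 0) of the regions of each Hox cluster in the 9 libraries, one symbol per library with its replicate number as the shape and its group as the colour, and the mean ± SD of each group in black. The groups overlap in every cluster, and NanogKO:Esrrb:Nanog has the widest spread (SD 44.1 CPM in Hox A against 16.9 and 17.6 CPM). Its overlap with NanogKO:Esrrb comes from its replicate 3 in every cluster.

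Most Hox regions showed small differences between the groups. A region was called at an adjusted p under 0.05 (edgeR's quasi-likelihood F test, Benjamini-Hochberg over the 157439 regions tested). Every adjusted p here comes from that fit or from the same test on gene totals. Where a left-out library or another window is named, it comes from the same test under that alternative. In the Esrrb comparison, 9 of the 158 Hox regions (5.70%) were called, 2 higher and 7 lower, where 37% of all regions were called. In the combined comparison, 33 (20.9%) were called, 23 higher and 10 lower, where 49.3% of all regions were called and 24.9% were called higher. In the Nanog comparison, 23 (14.6%) were called, 22 higher and 1 lower, where 24.6% of all regions were. For the higher and lower directions of this last comparison, the Hox shares were 13.9% and 0.633%, and those of all regions 12.6% and 12%. The 3 comparisons share their groups, so these counts are not independent of one another.

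The sizes of the differences were also limited. The median log2 fold change of the 158 regions was -0.12, 0.08 and 0.18 in the 3 comparisons, in the order above, and -0.01 in each over all regions. A difference over 2-fold was reached by 1, 2 and 0 Hox regions, against 14.4%, 22.4% and 5.73% of all regions. The 95% interval of the difference lay within 2-fold for 153, 138 and 139 Hox regions (96.8%, 87.3% and 87.97%), and for 65.7%, 56.3% and 74.0% of all regions. Hox regions had higher counts than most, with a median level of 5.43 CPM against 2.91 CPM and a median length of 463.5 bp against 345 bp, so their intervals were narrower (median standard error 0.17 against 0.20 between NanogKO:Esrrb and NanogKO). Of the 158 regions, 111 were called in none of the 3 comparisons, and 15 of the 38 genes had no called region. The matching shares over all regions and all genes were not counted, so these numbers have no background.

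These counts moved with single libraries. For the Esrrb comparison the count was 4 without NanogKO replicate 1, 14 without NanogKO:Esrrb:Nanog replicate 3 and 14 with the replicate number as a block. For the combined comparison it was 21 and 20 without NanogKO replicate 2 or 3, and 19 without NanogKO:Esrrb:Nanog replicate 2. The directions moved as well: 42 were higher and 7 lower without NanogKO:Esrrb:Nanog replicate 3 (median 0.20), and 18 higher and 15 lower without its replicate 1 (median 0.00). For the Nanog comparison it was 48 without NanogKO:Esrrb:Nanog replicate 3, with 47 higher and 1 lower, and 33 with the replicate block, 31 higher and 2 lower. It was 14 and 13 without replicate 1 or 2 of NanogKO:Esrrb:Nanog, and 15 and 14 without replicate 2 or 3 of NanogKO:Esrrb. Scaling also moved the directions: with library totals in place of TMM factors, 17 were higher and 19 lower between NanogKO:Esrrb:Nanog and NanogKO, with a median of -0.02. Within the Nanog comparison 15 were then higher and 3 lower, with a median of 0.08. This scaling shifted the median of all regions by -0.10 in both comparisons. Counts over all regions moved as well when NanogKO:Esrrb:Nanog replicate 3 was left out. In the Nanog comparison 24714 of 157472 were then higher and 25288 lower, against 19777 and 18935 of 157439 in the main fit. In the combined comparison 40252 were then higher and 40922 lower, against 39147 and 38429.

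Regions at promoters give a second background, since much of each Hox cluster is CpG-rich. This set was added after the values were seen. Across the genome, 6853 tested regions overlapped a RefSeq promoter window, 250 bases before to 50 after a gene start, that held at least 20 CG dinucleotides. Within the Esrrb comparison, 3.02% of them were called higher and 8.48% lower, with a median of -0.07. Within the combined comparison, 25% were called, 20.5% higher and 4.51% lower, with a median of 0.10. In the Nanog comparison, 19.4% were higher and 0.54% lower, with a median of 0.17. The Hox regions had shares of 1.27% and 4.43%, 14.6% and 6.33%, and 13.9% and 0.633% in the same order, and the share lower in the last comparison was near that of this set. Over the 13920 regions at any promoter window, 4.21% were lower in the Nanog comparison, and over the 109438 regions in or within 10 kb of a protein-coding gene, 24.7% were higher in the combined comparison. Hox regions were less open per length than regions at promoter windows with at least 20 CG, at a median of 12.96 against 24.6 CPM per kb. The median was 20.9 CPM per kb at any promoter window and 9.09 CPM per kb over all regions.

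**Figure D2:**
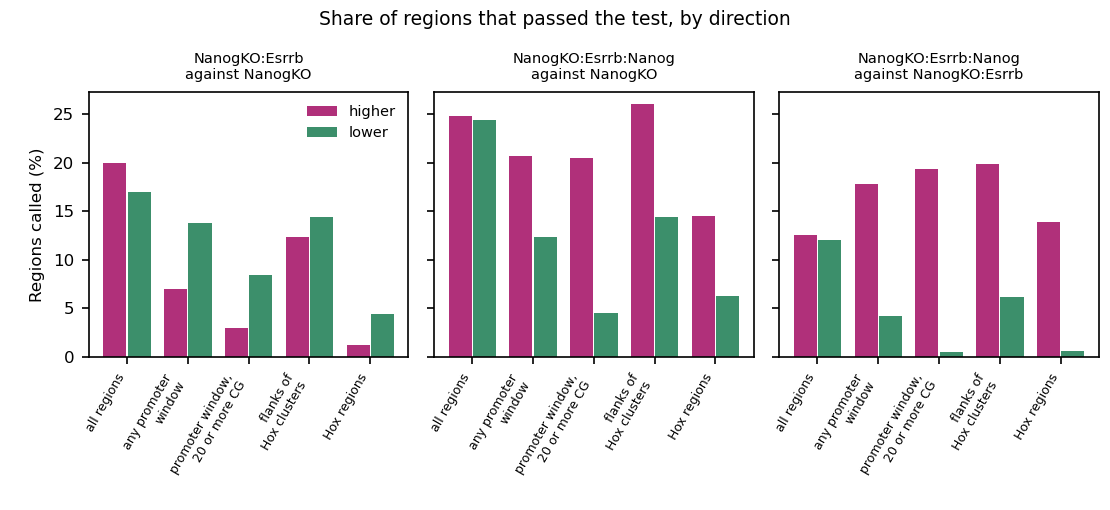
Share of regions called higher or lower (percent, vertical axis from 0) in the 3 comparisons, for all regions, regions at promoter windows, regions at promoter windows with at least 20 CG, regions within 200 kb outside the Hox clusters, and Hox regions. The Hox bars are below those of all regions except for calls higher between NanogKO:Esrrb:Nanog and NanogKO:Esrrb (13.9% against 12.6%).

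Along the clusters, genes of groups 1 to 4 had 56 regions, groups 5 to 8 had 30 and groups 9 to 13 had 72. In the Esrrb comparison, 1 region was higher and 2 lower in groups 1 to 4, 0 and 1 in groups 5 to 8, and 1 and 4 in groups 9 to 13. In the combined comparison, the counts were 8 and 1, 2 and 2, and 13 and 7. For the Nanog comparison, they were 8 and 0, 3 and 0, and 11 and 1. Medians in this last comparison were 0.18, 0.19 and 0.18. The shares called in these 3 sets of groups were 5.36%, 3.33% and 6.94% in the Esrrb comparison, where 37% of all regions were called. In the combined comparison they were 16.1%, 13.3% and 27.8%, against 49.3%. In the Nanog comparison they were 14.3%, 10.0% and 16.7%, against 24.6%. Every set thus held called regions, at a share below that of all regions.

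**Figure D3:**
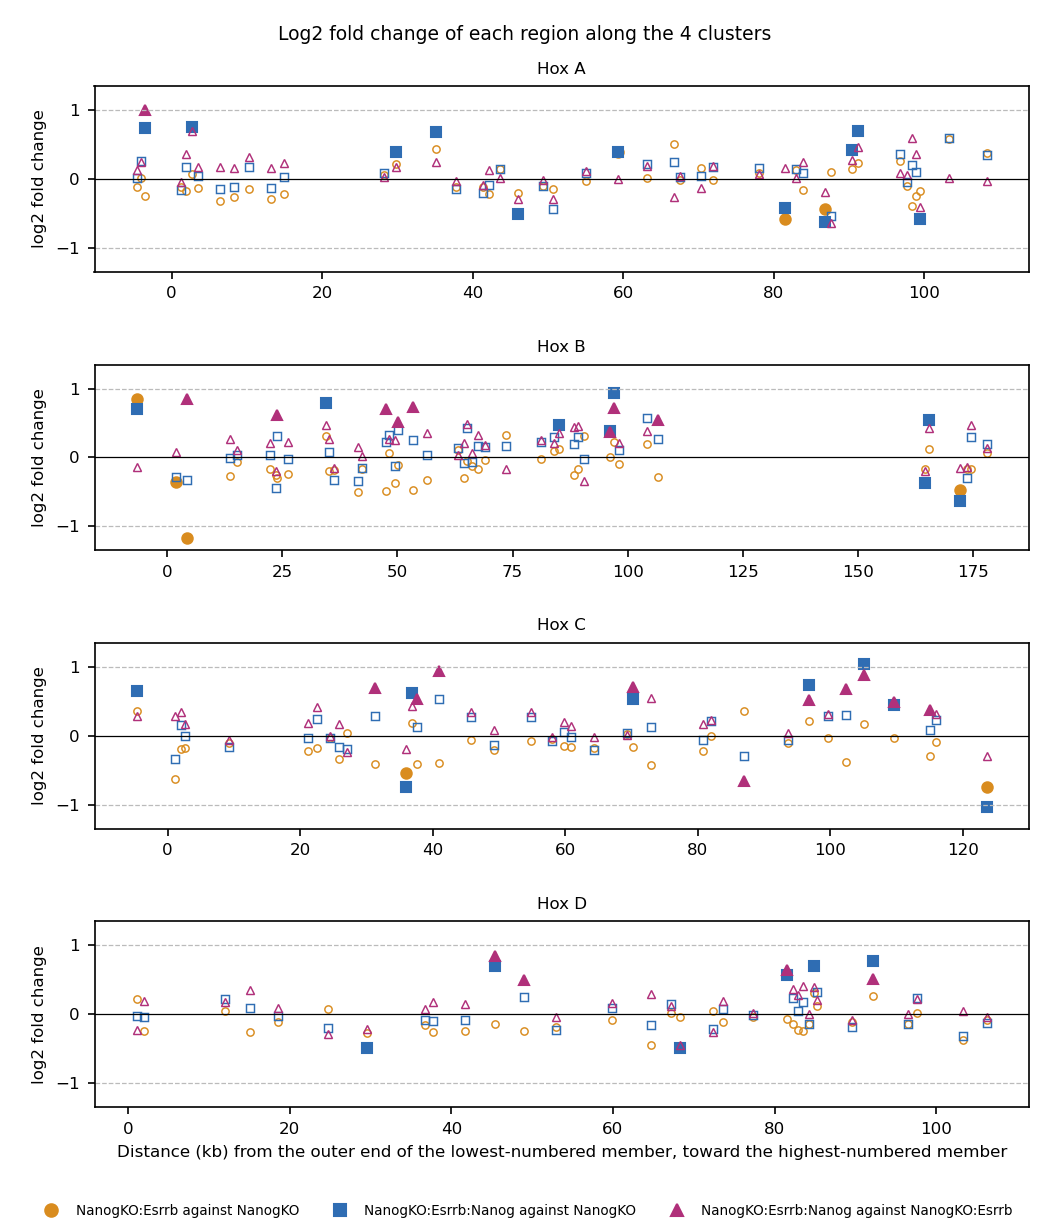
Log2 fold change of each region (vertical axis) along the 4 clusters, plotted by distance in kb from the outer end of the lowest-numbered member toward the highest-numbered one, with filled symbols for called regions and open symbols for the rest. Dashed lines mark 2-fold, which 1, 2 and 0 regions passed in the 3 comparisons. Over the 4 clusters together, filled symbols lie at low-, middle- and high-numbered genes.

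Hox A lies on chromosome 6 (mm10 chr6:52162417-52260880) and here held 10 genes, Hoxa2 to Hoxa13, over 98.5 kb. For the Esrrb comparison, 1 region was higher, near Hoxa9, and 2 were lower, at Hoxa11. For the combined comparison, 7 were higher (2 each at Hoxa2, Hoxa3 and Hoxa13 and 1 at Hoxa9) and 4 lower (2 at Hoxa11 and 1 each at Hoxa6 and Hoxa13). Within the Nanog comparison, 1 was higher, at Hoxa2, and 0 were lower, with 1 lower at an unadjusted p under 0.05 and 0 by DESeq2. Medians were -0.10, 0.09 and 0.12. Hoxa9 was the most open member per length, at 24.8 CPM per kb of its regions, and Hoxa4 the least, at 11.3 CPM per kb.

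Hoxa9, a gene of trunk patterning and blood progenitors, had the most open region of the cluster, 955 bp outside its span (chr6:52221348-52222142). It had 16.2, 14.5 and 14.3 CPM in NanogKO, then 20.3, 19.6 and 19.1 CPM in NanogKO:Esrrb, and then 22.3, 19.0 and 17.9 CPM in NanogKO:Esrrb:Nanog. Both groups with Esrrb lay above NanogKO without overlap, and they overlapped with each other. The log2 fold change against NanogKO was 0.39 ± 0.12 (SE, adjusted p 0.00883) with Esrrb and 0.40 ± 0.12 (adjusted p 0.00606) with both factors. Between the latter groups it was 0.00 ± 0.12.

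Hoxa11, which patterns the forearm and the uterus, fell at a region inside its span (chr6:52243667-52244206). There it had 7.85, 8.69 and 8.70 CPM in NanogKO, then 5.68, 5.64 and 5.60 CPM in NanogKO:Esrrb, and then 7.55, 5.55 and 5.78 CPM in NanogKO:Esrrb:Nanog. The change was -0.58 ± 0.14 with Esrrb (adjusted p 0.00229) and -0.42 ± 0.14 with both (adjusted p 0.018), and replicate 1 of NanogKO:Esrrb:Nanog lay just under the NanogKO libraries. Another region 3151 bp outside its span (chr6:52248961-52249653) had 8.90, 7.50 and 6.65 CPM in NanogKO, then 5.98, 5.38 and 5.62 CPM in NanogKO:Esrrb, and then 5.58, 4.17 and 5.03 CPM in NanogKO:Esrrb:Nanog. Both groups lay below NanogKO. It fell by 0.63 ± 0.15 on the log2 scale with both factors (adjusted p 0.00123), and by 0.44 ± 0.15 with Esrrb (adjusted p 0.0234). The latter call was lost without NanogKO replicate 1 or 2 or NanogKO:Esrrb replicate 2 or 3, where the adjusted p was 0.154, 0.0505, 0.0763 and 0.057.

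Hoxa2, which sets the identity of the second branchial arch, was assigned a region 3371 bp outside its span (chr6:52158807-52159046), which lies nearer to a gene that is no member. It had 6.56, 7.02 and 8.64 CPM in NanogKO, then 6.68, 5.95 and 6.07 CPM in NanogKO:Esrrb, and then 14.9, 14.3 and 8.23 CPM in NanogKO:Esrrb:Nanog. Replicates 1 and 2 of the last group were the highest of the 9 libraries, and replicate 3 lay below NanogKO replicate 3. The rise was 0.75 ± 0.17 over NanogKO (adjusted p 0.000676) and 1.00 ± 0.17 over NanogKO:Esrrb (adjusted p 0.000178), and both calls held when any 1 library was left out.

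Hoxa13, a gene of the digits and the hindgut, had regions that moved in opposite directions between NanogKO:Esrrb:Nanog and NanogKO. A region 5042 bp outside its span (chr6:52253472-52253811) had 2.34, 2.70 and 2.43 CPM in NanogKO, then 2.56, 2.66 and 3.53 CPM in NanogKO:Esrrb, and then 4.002, 5.19 and 3.03 CPM in NanogKO:Esrrb:Nanog. It rose by 0.69 ± 0.20 (adjusted p 0.00567), a call lost without NanogKO:Esrrb:Nanog replicate 2 (adjusted p 0.0586). A region 937 bp outside it (chr6:52261817-52262078) had 2.22, 2.52 and 2.78 CPM in NanogKO, then 2.46, 2.28 and 1.90 CPM in NanogKO:Esrrb, and then 1.62, 1.67 and 1.71 CPM in NanogKO:Esrrb:Nanog. It fell by 0.59 ± 0.20 on the log2 scale (adjusted p 0.0173), a call lost without NanogKO replicate 3 (adjusted p 0.0735).

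Hox B lies on chromosome 11 (chr11:96194316-96368254) and spans 174 kb, with a gap between Hoxb13 and Hoxb9. Within the Esrrb comparison, 1 region was higher and 3 were lower, with 3 of the 4 at Hoxb1 and 1 at Hoxb13. Within the combined comparison, 6 were higher (2 at Hoxb9 and 1 each at Hoxb1, Hoxb3, Hoxb8 and Hoxb13) and 2 lower, both at Hoxb13. In the Nanog comparison, 8 were higher (3 at Hoxb9, 2 each at Hoxb3 and Hoxb4 and 1 at Hoxb1) and 0 lower, with 0 lower at an unadjusted p under 0.05 and 0 by DESeq2. Medians were -0.17, 0.16 and 0.25. Hoxb2, a gene of the facial motor neurons, was the most open member per length at 25.2 CPM per kb, and Hoxb1 the least at 9.02 CPM per kb. The most open region of the cluster, in Hoxb2 (chr11:96352676-96353626), had means of 20.1, 19.1 and 20.6 CPM, with changes of -0.07 ± 0.13, 0.03 ± 0.13 and 0.11 ± 0.13, none of them called.

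Hoxb1, which specifies a segment of the hindbrain and is an early target of retinoic acid, had 3 regions that moved in different ways. The region 1588 bp before its span (chr11:96363768-96364158) had 5.88, 4.87 and 4.56 CPM in NanogKO, then 2.31, 1.71 and 2.78 CPM in NanogKO:Esrrb, and then 4.67, 4.20 and 3.35 CPM in NanogKO:Esrrb:Nanog. The NanogKO:Esrrb libraries lay below the 6 others. It fell by 1.17 ± 0.19 on the log2 scale with Esrrb alone (adjusted p 2.18e-05), the only Hox change over 2-fold in that comparison. It rose by 0.84 ± 0.19 from NanogKO:Esrrb to NanogKO:Esrrb:Nanog (adjusted p 0.00268), and the latter differed from NanogKO by -0.33 ± 0.19 (adjusted p 0.149).

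The region 6185 bp beyond the other end of Hoxb1 (chr11:96374439-96375251) had 3.76, 3.55 and 3.73 CPM in NanogKO, then 7.37, 6.43 and 6.04 CPM in NanogKO:Esrrb, and then 6.01, 4.75 and 7.04 CPM in NanogKO:Esrrb:Nanog. All 6 libraries with Esrrb lay above NanogKO. It rose by 0.85 ± 0.16 with Esrrb (adjusted p 0.000136) and by 0.70 ± 0.16 with both factors (adjusted p 0.000759). The calls at both of these Hoxb1 regions held when any 1 library was left out.

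Hoxb9, a gene of the thoracic skeleton, had a region 18 bp outside its span (chr11:96271095-96271312) with 2.51, 2.08 and 2.33 CPM in NanogKO, then 2.52, 2.58 and 2.94 CPM in NanogKO:Esrrb, and then 5.33, 4.46 and 3.44 CPM in NanogKO:Esrrb:Nanog. The last group lay above the 6 other libraries. It rose by 0.93 ± 0.19 over NanogKO (adjusted p 0.000192) and by 0.71 ± 0.19 over NanogKO:Esrrb (adjusted p 0.0069). A region 9448 bp outside Hoxb9 (chr11:96261473-96261882) had 6.24, 6.23 and 6.38 CPM in NanogKO:Esrrb, against 9.83, 10.3 and 7.49 CPM in NanogKO:Esrrb:Nanog, a rise of 0.54 ± 0.14 (adjusted p 0.00687). Its NanogKO libraries, at 7.37, 7.22 and 8.29 CPM, lay between these groups and overlapped with the higher one.

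Hoxb13, known from the prostate and the tail bud, fell at a region in the gene (chr11:96195806-96196207). It had 4.88, 4.63 and 5.05 CPM in NanogKO, then 3.82, 2.96 and 3.65 CPM in NanogKO:Esrrb, and then 2.92, 2.93 and 3.44 CPM in NanogKO:Esrrb:Nanog. Both groups lay below NanogKO. The fall was 0.64 on the log2 scale with both factors (log2 fold change -0.64 ± 0.17, adjusted p 0.00244) and -0.48 ± 0.16 with Esrrb (adjusted p 0.0228), and the call with Esrrb was lost without NanogKO replicate 1 or 3 or NanogKO:Esrrb replicate 2 (adjusted p 0.0578, 0.071 and 0.12). A region 6670 bp outside the gene (chr11:96203280-96204150) was lower with both factors by -0.37 ± 0.14 (adjusted p 0.0288), with means of 11.1 and 8.58 CPM whose libraries overlapped. That call was lost without NanogKO replicate 1 or 2 or NanogKO:Esrrb:Nanog replicate 2 or 3 (adjusted p 0.159, 0.0524, 0.0721 and 0.123).

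Hox C lies on chromosome 15 (chr15:102921131-103036856) and here held Hoxc4 to Hoxc13 over 116 kb. In the Esrrb comparison, 2 regions were lower, at Hoxc6 and Hoxc13, and 0 higher, with 1 higher at an unadjusted p under 0.05 and 0 by DESeq2. In the combined comparison, 6 were higher (2 at Hoxc13 and 1 each at Hoxc4, Hoxc6, Hoxc10 and Hoxc12) and 2 lower, at Hoxc6 and Hoxc13. For the Nanog comparison, 9 were higher (3 at Hoxc13, 2 each at Hoxc6 and Hoxc12 and 1 each at Hoxc8 and Hoxc10) and 1 lower, near Hoxc11. Medians were -0.16, 0.08 and 0.28. Hoxc13 was the most open member per length at 27.6 CPM per kb and Hoxc4 the least at 8.63 CPM per kb.

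Hoxc13, a gene of hair and nail formation, had a region 2704 bp outside its span (chr15:102931518-102932069) with 9.02, 7.37 and 8.47 CPM in NanogKO, then 9.42, 9.51 and 9.06 CPM in NanogKO:Esrrb, and then 20.3, 16.8 and 14.4 CPM in NanogKO:Esrrb:Nanog. The last group lay above all 6 other libraries. It rose by 1.05 ± 0.14 over NanogKO (adjusted p 3.21e-07) and by 0.88 ± 0.13 over NanogKO:Esrrb (adjusted p 4.65e-05), while NanogKO:Esrrb and NanogKO differed by 0.17 ± 0.14 (adjusted p 0.335). The region of highest level in the cluster, in Hoxc13 (chr15:102921174-102922274), had 22.1, 20.4 and 22.4 CPM in NanogKO, then 18.5, 16.0 and 18.2 CPM in NanogKO:Esrrb, and then 25.7, 23.9 and 19.0 CPM in NanogKO:Esrrb:Nanog. It rose by 0.38 ± 0.12 from NanogKO:Esrrb to NanogKO:Esrrb:Nanog (adjusted p 0.0242).

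On the other side of Hoxc13, a weak region 7754 bp outside it (chr15:102913133-102913377) had 1.39, 1.16 and 1.399 CPM in NanogKO, then 1.05, 0.402 and 0.905 CPM in NanogKO:Esrrb, and then 0.622, 0.587 and 0.692 CPM in NanogKO:Esrrb:Nanog. Both groups lay below NanogKO. The change was -1.04 ± 0.30 with both factors (adjusted p 0.00574) and -0.75 ± 0.29 with Esrrb (adjusted p 0.0435). The call with Esrrb was lost under 7 of 15 alternatives. Among them were those without NanogKO replicates 1, 2 or 3 (adjusted p 0.11, 0.0569 and 0.113) and without NanogKO:Esrrb replicate 2 or 3 (adjusted p 0.279 and 0.0515). Without NanogKO:Esrrb replicate 2 the change was -0.42.

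Hoxc12, next to Hoxc13, had a region 1194 bp outside the gene (chr15:102939803-102940206) with 7.12, 6.14 and 6.18 CPM in NanogKO, then 7.49, 7.12 and 7.93 CPM in NanogKO:Esrrb, and then 11.3, 10.7 and 10.3 CPM in NanogKO:Esrrb:Nanog. The last group lay above the other 6 libraries, with rises of 0.74 ± 0.13 (adjusted p 4e-05) and 0.52 ± 0.13 (adjusted p 0.00504). Hoxc10, which acts in hindlimb motor neurons, had a region 95 bp outside its span (chr15:102966497-102966701) with 5.52, 4.81 and 4.65 CPM in NanogKO:Esrrb, against 8.83, 9.74 and 5.93 CPM in NanogKO:Esrrb:Nanog. These groups did not overlap, and the rise was 0.70 ± 0.17 (adjusted p 0.00336). Its NanogKO libraries had 5.46, 5.03 and 6.24 CPM and overlapped with both groups.

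Hoxc6, a gene of the thoracic region, fell at a region in the gene (chr15:103000548-103001060). It had 6.83, 6.15 and 5.62 CPM in NanogKO, then 4.19, 4.22 and 4.33 CPM in NanogKO:Esrrb, and then 4.396, 2.82 and 3.82 CPM in NanogKO:Esrrb:Nanog. Both groups lay below NanogKO, at -0.54 ± 0.16 (adjusted p 0.0101) and -0.74 ± 0.17 (adjusted p 0.000576). The first call was lost without NanogKO replicate 1 (adjusted p 0.058). Near Hoxc11, a region 4495 bp outside the gene (chr15:102949759-102950031) had 1.65, 1.44 and 1.48 CPM in NanogKO:Esrrb, against 0.871, 1.09 and 0.951 CPM in NanogKO:Esrrb:Nanog. Its change of -0.66 ± 0.23 (adjusted p 0.0405) was the only call lower among the 158 regions in that comparison. It was lost under 7 of 15 alternatives, with an adjusted p of 0.129 and 0.117 without replicate 1 of NanogKO:Esrrb or of NanogKO:Esrrb:Nanog. Without NanogKO replicate 2, NanogKO:Esrrb replicate 2 or 3, or NanogKO:Esrrb:Nanog replicate 3 it was 0.0509, 0.0626, 0.0863 and 0.0613.

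Hox D lies on chromosome 2 (chr2:74668225-74765142) and holds Hoxd1 to Hoxd13 over 96.9 kb. For the Esrrb comparison, 0 of its 33 regions were called by edgeR, with 0 higher and 3 lower at an unadjusted p under 0.05 and 0 called by DESeq2. For all 33, the 95% interval of that difference lay within 2-fold. For the combined comparison, 4 were higher (2 at Hoxd11 and 1 each at Hoxd3 and Hoxd13) and 2 lower, at Hoxd3 and Hoxd9. Within the Nanog comparison, 4 were higher (2 at Hoxd3 and 1 each at Hoxd11 and Hoxd13) and 0 lower, with 1 lower at an unadjusted p under 0.05 and 0 by DESeq2. Medians were -0.12, -0.02 and 0.17. Hoxd11 was the most open member per length at 24.4 CPM per kb and Hoxd4 the least at 8.57 CPM per kb.

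Hoxd13, which patterns the digits, had a region 1153 bp outside its span (chr2:74672756-74673219) with 6.90, 5.77 and 5.33 CPM in NanogKO, then 7.23, 7.37 and 7.05 CPM in NanogKO:Esrrb, and then 10.2, 10.9 and 9.65 CPM in NanogKO:Esrrb:Nanog. The 3 groups did not overlap. The rise was 0.78 ± 0.14 over NanogKO (adjusted p 3.4e-05) and 0.51 ± 0.14 over NanogKO:Esrrb (adjusted p 0.0078), and the difference of 0.27 ± 0.14 between the latter 2 was not called (adjusted p 0.128). The region of highest level assigned to the cluster, 8883 bp outside Hoxd13 (chr2:74658494-74659342) and nearer to Evx2, had means of 21.2, 19.9 and 19.3 CPM, and none of its differences was called.

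Hoxd11, a partner of Hoxa11 in the forearm, had a short region in the gene (chr2:74680252-74680298) with 1.44, 1.34 and 1.07 CPM in NanogKO, then 1.59, 1.52 and 1.64 CPM in NanogKO:Esrrb, and then 1.97, 2.61 and 1.71 CPM in NanogKO:Esrrb:Nanog. It rose by 0.69 ± 0.23 over NanogKO (adjusted p 0.013), a call lost without NanogKO replicate 3 or NanogKO:Esrrb:Nanog replicate 2 (adjusted p 0.0662 and 0.0809). Hoxd3, a gene of the neck vertebrae, had regions of both directions in the gene. One (chr2:74735031-74736239) had 11.7, 14.3 and 10.8 CPM in NanogKO, then 10.0, 10.3 and 10.3 CPM in NanogKO:Esrrb, and then 9.33, 8.54 and 8.42 CPM in NanogKO:Esrrb:Nanog, and fell by 0.48 ± 0.13 on the log2 scale from the first group to the last (adjusted p 0.00306). Another (chr2:74715851-74716404) had 7.09, 6.65 and 6.63 CPM in NanogKO:Esrrb, against 10.4, 9.77 and 8.61 CPM in NanogKO:Esrrb:Nanog, a rise of 0.50 ± 0.13 (adjusted p 0.00843). In both the groups compared did not overlap.

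Near Hoxd9, a region 650 bp outside the gene (chr2:74696651-74697113) had 4.12, 4.17 and 4.07 CPM in NanogKO, against 3.67, 1.91 and 3.13 CPM in NanogKO:Esrrb:Nanog. Its change of -0.49 ± 0.19 (adjusted p 0.0364) was lost without NanogKO replicate 1, 2 or 3 (adjusted p 0.0742, 0.0817 and 0.0675) and without NanogKO:Esrrb:Nanog replicate 2, where it was -0.28 (adjusted p 0.212). NanogKO:Esrrb had 4.11, 3.63 and 4.30 CPM there.

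**Figure D4:**
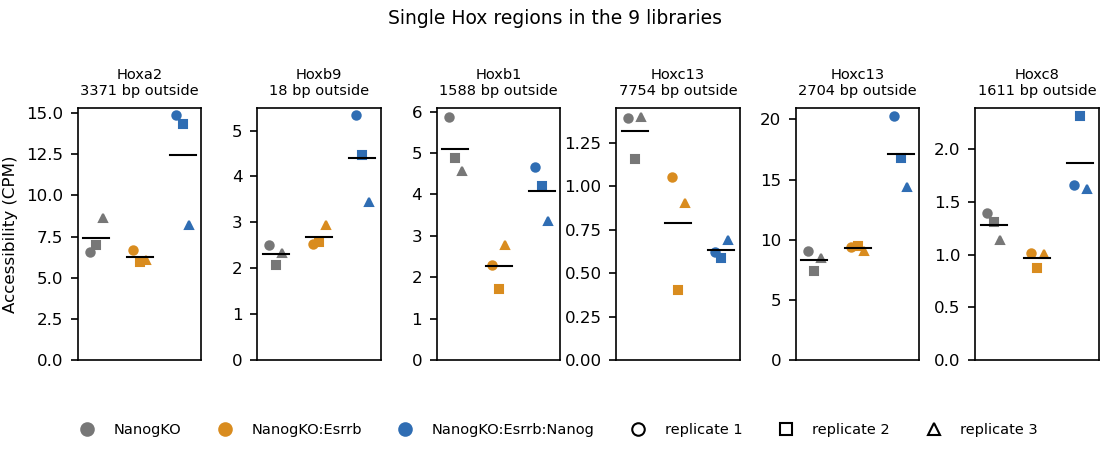
Accessibility (CPM, vertical axes from 0 with their own scales) in the 9 libraries of the 6 Hox regions with the largest called difference in any comparison, named by their gene and their distance from its span, with the group mean as a black line. The set was chosen after the values were seen; the Hoxb1 region is lowest in NanogKO:Esrrb (mean 2.27 CPM), and the Hoxc13 region 2704 bp outside is highest in NanogKO:Esrrb:Nanog (mean 17.2 CPM).

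The largest called differences include a weak region 1611 bp outside Hoxc8 (chr15:102995886-102995990), chosen after its values were seen. It had 1.39, 1.30 and 1.14 CPM in NanogKO, then 1.01, 0.871 and 1.01 CPM in NanogKO:Esrrb, and then 1.66, 2.32 and 1.63 CPM in NanogKO:Esrrb:Nanog. The rise from the second group to the last was 0.94 ± 0.24 (adjusted p 0.00526).

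Counts were also summed per gene over its regions, which gives each of the 38 genes 1 value and 1 test among 18329 genes. Within the Esrrb comparison, 2 genes were called (5.26%), Hoxa9 higher and Hoxc6 lower, where 32.6% of all genes were called. Within the combined comparison, 6 were higher (15.8%), Hoxa2, Hoxa9, Hoxb8, Hoxb9, Hoxc12 and Hoxc13, and 0 lower, where 46.4% of all genes were called and 23.5% were higher. At an unadjusted p under 0.05, 2 genes were lower in that comparison, and 0 by DESeq2. In the Nanog comparison, 3 were higher (7.89%), Hoxa2, Hoxb9 and Hoxc13, and 0 lower, where 19.3% of all genes were called, 9.81% higher and 9.44% lower. At an unadjusted p under 0.05, 0 genes were lower there, and 0 by DESeq2.

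The gene totals changed by less than 1.5-fold. Log2 fold changes ranged from -0.25 to 0.27, from -0.22 to 0.32 and from -0.17 to 0.39 in the 3 comparisons. The 95% interval lay within 1.5-fold for 38, 38 and 37 of the 38 genes, where 80.2%, 73.4% and 84.8% of all genes met this. The exception was Hoxa2 between NanogKO:Esrrb:Nanog and NanogKO:Esrrb, whose upper bound was 0.59 on the log2 scale. The medians over the 38 were -0.06, 0.04 and 0.06.

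Hoxa9 had totals of 43.2, 40.9 and 40.8 CPM in NanogKO, then 50.7, 49.7 and 50.6 CPM in NanogKO:Esrrb, and then 54.7, 48.1 and 46.4 CPM in NanogKO:Esrrb:Nanog. Both groups lay above NanogKO, by 0.27 ± 0.07 (adjusted p 0.00738) and 0.26 ± 0.07 (adjusted p 0.00784). With regions in the gene alone these were 0.07 and 0.16 and were not called (adjusted p 0.592 and 0.184), and the second was not called without NanogKO:Esrrb:Nanog replicate 1 (adjusted p 0.0659). Hoxc6 had 39.7, 36.4 and 34.7 CPM in NanogKO, against 32.8, 30.9 and 29.7 CPM in NanogKO:Esrrb, a change of -0.25 ± 0.08 (adjusted p 0.0232). That call was lost without NanogKO replicate 1 or 2 or NanogKO:Esrrb replicate 2 or 3 (adjusted p 0.119, 0.0591, 0.0684 and 0.083).

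Hoxb9 had totals of 40.2, 35.6 and 37.3 CPM in NanogKO, then 40.1, 37.9 and 37.3 CPM in NanogKO:Esrrb, and then 49.6, 50.4 and 41.7 CPM in NanogKO:Esrrb:Nanog. The last group lay above the other 6 libraries, by 0.32 ± 0.08 over NanogKO (adjusted p 0.00326) and 0.30 ± 0.08 over NanogKO:Esrrb (adjusted p 0.0169). The second call was lost without replicate 1 or 2 of NanogKO:Esrrb:Nanog (adjusted p 0.0618 and 0.0917) or replicate 2 or 3 of NanogKO:Esrrb (adjusted p 0.0567 and 0.0636), and with regions in the gene alone (0.26, adjusted p 0.0917). Hoxc13 had 68.6, 63.6 and 69.5 CPM in NanogKO, then 68.6, 58.2 and 63.5 CPM in NanogKO:Esrrb, and then 91.8, 81.1 and 73.5 CPM in NanogKO:Esrrb:Nanog. The last group again lay above the other 6, by 0.29 ± 0.08 (adjusted p 0.00644) and 0.37 ± 0.08 (adjusted p 0.00409). Without NanogKO:Esrrb:Nanog replicate 1 the first was 0.20 and not called (adjusted p 0.0513), and with regions in the gene alone it was 0.09 (adjusted p 0.424). With the window widened to 50 kb it was 0.02 (adjusted p 0.795), and that window takes in flanking regions that fell.

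Hoxa2 had totals of 32.4, 33.9 and 34.9 CPM in NanogKO, then 34.5, 30.4 and 31.8 CPM in NanogKO:Esrrb, and then 46.9, 45.3 and 34.4 CPM in NanogKO:Esrrb:Nanog. Replicate 3 of the last group lay among the other groups. The changes of 0.32 ± 0.10 (adjusted p 0.0115) and 0.39 ± 0.10 (adjusted p 0.0105) were both lost without replicate 1 or 2 of NanogKO:Esrrb:Nanog (adjusted p 0.0743 and 0.0603 for the first, 0.0533 and 0.0643 for the second), and the second also without NanogKO:Esrrb replicate 2 (adjusted p 0.0513). With regions in the gene alone they were 0.01 and 0.11 (adjusted p 0.98 and 0.654). Hoxb8 and Hoxc12, with changes of 0.31 ± 0.12 (adjusted p 0.0494) and 0.19 ± 0.08 (adjusted p 0.0433) over NanogKO, lost their calls under 10 and 9 of 17 alternatives. For Hoxb8 these included leaving out NanogKO:Esrrb:Nanog replicate 1, where the change was 0.15 (adjusted p 0.332), and for Hoxc12 leaving out NanogKO replicate 2, where it was 0.14 (adjusted p 0.204).

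These counts also moved with single libraries. In the Esrrb comparison, 1 gene was called without NanogKO replicate 1 or 2, or without NanogKO:Esrrb replicate 2 or 3. In the combined comparison, 1 gene was higher and 2 lower without NanogKO:Esrrb:Nanog replicate 1, and 3 were called without its replicate 2. With library totals as the scaling, 4 were higher and 2 lower, and with regions in the genes alone 2 were higher and 2 lower. For the Nanog comparison, 9 were called without NanogKO:Esrrb:Nanog replicate 3 and 6 with the replicate block. In the same comparison 1 was called without replicate 1 or 2 of NanogKO:Esrrb:Nanog or without NanogKO:Esrrb replicate 2. Over all 18329 genes, 2747 were higher and 2773 lower there without NanogKO:Esrrb:Nanog replicate 3, against 1798 and 1731 in the main fit.

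**Figure D5:**
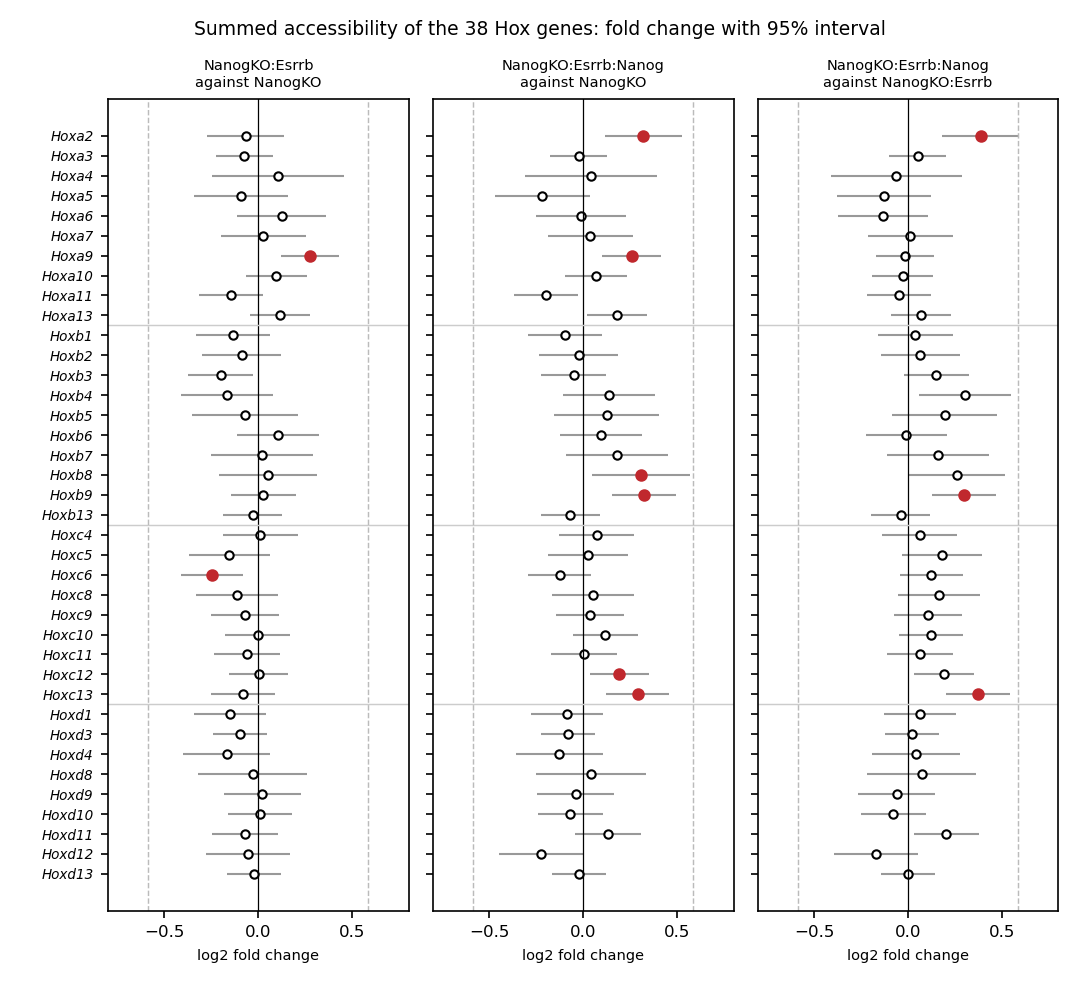
Log2 fold change of the summed accessibility of each of the 38 Hox genes (points) with its 95% interval (lines) in the 3 comparisons, ordered by cluster and number, with called genes in red and dashed lines at 1.5-fold. There are 2, 6 and 3 called genes, and the intervals lie within 1.5-fold for 38, 38 and 37 genes.

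Promoter windows could be read for 22 of the 38 genes (24 windows, RefSeq, GRCm38.p6). The 16 genes without one were Hoxa4, Hoxb2, Hoxb3, Hoxb5, Hoxb6, Hoxb7, Hoxb9, Hoxb13, Hoxc5, Hoxc6, Hoxc8, Hoxc9, Hoxc10, Hoxc11, Hoxc12 and Hoxc13. Of the 24 windows, 16 overlapped a counted region, and 17 regions lay at them. Hox windows held a median of 14.5 CG dinucleotides, from 4 to 45, where all 32851 windows had a median of 7. At the 17 promoter regions, 1 was lower between NanogKO:Esrrb and NanogKO, at Hoxb1. For the combined comparison 0 were called, with 1 higher and 2 lower at an unadjusted p under 0.05 and 1 called by DESeq2. Within the Nanog comparison 1 was higher, at Hoxb4. The shares called were thus 5.88%, 0% and 5.88% in the 3 comparisons. Of the 13920 regions at any promoter window, 20.8%, 33.1% and 22.0% were called. With only 17 regions, the Hox shares are coarse. They leave out the 16 genes without a window, such as Hoxb9, which had a called region 18 bp outside its span.

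The sequences before the starts of both genes whose promoter region was called, Hoxb1 (chr11:96365508-96365757, plus strand) and Hoxb4 (chr11:96318017-96318266, plus strand), are shown with that of Hoxd8 (chr2:74704365-74704614, plus strand), the only window with a match to the short ESRRB site AAGGTCA. Each is written 5′ to 3′ over the 250 bases before the start, and capitals mark a match to a motif searched, the short site in Hoxd8 and TGATNNAT, a site bound by HOX proteins with their cofactors, in Hoxb1.
Hoxb1: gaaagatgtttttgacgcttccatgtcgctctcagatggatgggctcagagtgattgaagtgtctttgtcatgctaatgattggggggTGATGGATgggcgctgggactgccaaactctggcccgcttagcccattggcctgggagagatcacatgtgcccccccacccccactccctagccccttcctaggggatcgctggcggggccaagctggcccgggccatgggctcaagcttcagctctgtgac
Hoxb4: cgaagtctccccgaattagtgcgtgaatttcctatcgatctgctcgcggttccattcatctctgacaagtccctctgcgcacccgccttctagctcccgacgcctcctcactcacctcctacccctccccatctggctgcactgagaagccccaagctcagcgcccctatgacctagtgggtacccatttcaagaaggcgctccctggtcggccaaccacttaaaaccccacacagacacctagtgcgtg
Hoxd8: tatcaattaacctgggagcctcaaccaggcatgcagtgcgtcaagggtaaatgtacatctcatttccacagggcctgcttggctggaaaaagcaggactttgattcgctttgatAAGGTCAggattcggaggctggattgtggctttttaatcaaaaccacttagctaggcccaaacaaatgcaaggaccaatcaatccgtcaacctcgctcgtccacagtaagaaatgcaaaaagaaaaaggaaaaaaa

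These promoter regions lie outside the rule for named regions and were picked with their values known. The region at the Hoxb1 start (chr11:96365723-96367218) had 13.4, 11.5 and 11.1 CPM in NanogKO, then 9.82, 9.19 and 8.92 CPM in NanogKO:Esrrb, and then 10.7, 8.74 and 10.0 CPM in NanogKO:Esrrb:Nanog. Both groups lay below NanogKO, by -0.36 ± 0.13 (adjusted p 0.0268) and -0.28 ± 0.13 (adjusted p 0.0705). The region at the Hoxb4 start (chr11:96317935-96318371) had 4.63, 3.45 and 3.75 CPM in NanogKO, then 4.31, 3.13 and 3.497 CPM in NanogKO:Esrrb, and then 5.70, 5.52 and 4.44 CPM in NanogKO:Esrrb:Nanog. It rose by 0.52 ± 0.17 over NanogKO:Esrrb (adjusted p 0.0308), where the libraries did not overlap. Hoxd8, with 1 region, that at its start, had means of 15.4, 14.6 and 16.3 CPM and changes of -0.08, 0.08 and 0.17, none of them called.

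Motifs were searched on both strands of the 24 Hox windows and of all 32851. The full ESRRB site TCAAGGTCA was in 0 Hox windows and in 0.423% of all windows, and the short site, which the full site contains, in 1 (4.17%) against 4.72%. The direct repeat bound by retinoic acid receptors, with a 5-base spacer, was in 0 and in 0.00913% of all. The CDX site TTTATG was in 5 (20.8%), at Hoxa7, Hoxb8, Hoxd3, Hoxd4 and Hoxd11, against 11.9%. TGATNNAT, added after the values were seen, was in 4 (16.7%), at Hoxa2, Hoxb1, Hoxb8 and Hoxd11, against 8.85%. A match describes letters in these windows only.

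The clusters also hold microRNA genes, whose mature sequences are shown because paralogous clusters share seeds (bases 2 to 8, in capitals, 5′ to 3′, from RefSeq). The miR-10 pair comes from Mir10a, beside Hoxb4 and within the span of Hoxb3, and from Mir10b, within the span of Hoxd4. The miR-196 group comes from Mir196b in Hox A and from Mir196a-1 and Mir196a-2 in Hox B and Hox C. The pair and the group each share 1 seed. Mir615, within the span of Hoxc5, shares neither seed and is not shown.
miR-10a-5p: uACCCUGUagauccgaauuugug
miR-10b-5p: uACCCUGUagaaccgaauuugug
miR-196a-5p: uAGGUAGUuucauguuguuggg
miR-196b-5p: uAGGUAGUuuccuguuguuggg

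Mir196b lies within a counted region assigned to Hoxa10 (chr6:52229623-52230300), which had means of 13.2, 13.02 and 13.4 CPM and changes of -0.01, 0.03 and 0.04. The region nearest to Mir10a, 661 bp away, was the Hoxb4 promoter region described above, and that nearest to Mir10b, 1067 bp away and assigned to Hoxd4, differed by -0.27, -0.09 and 0.17. The regions nearest to Mir196a-1 and Mir196a-2, 1053 bp and 818 bp away, differed by 0.19, 0.57 and 0.38 and by -0.18, -0.20 and -0.02. The region nearest to Mir615, assigned to Hoxc5, differed by -0.22, -0.04 and 0.19. Of these values only the Hoxb4 rise between NanogKO:Esrrb and NanogKO:Esrrb:Nanog was called.

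The surroundings of the clusters were read in the same way. Within 200 kb of the outermost members and beyond 10 kb of any member lay 146 regions. Of these, 39 (26.7%), 59 (40.4%) and 38 (26.0%) were called in the 3 comparisons, where 37%, 49.3% and 24.6% of all regions were, and 12, 21 and 8 differed over 2-fold. Their medians were -0.03, 0.12 and 0.12. The Hox regions had 9, 33 and 23 called, 1, 2 and 0 over 2-fold, and medians of -0.12, 0.08 and 0.18. Flank and Hox regions were not tested against each other.

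Beyond Hoxc13, a region 36247 bp away (chr15:102884726-102884884) had 2.88, 3.53 and 2.27 CPM in NanogKO, then 0.556, 0.452 and 0.487 CPM in NanogKO:Esrrb, and then 0.290, 0.528 and 0.242 CPM in NanogKO:Esrrb:Nanog. It fell by 2.54 ± 0.27 and 3.10 ± 0.29 on the log2 scale against NanogKO (adjusted p 3.76e-08 and 1.94e-09). Another, 47905 bp from Hoxc13 (chr15:102872819-102873226), fell by 2.09 ± 0.23 and 2.53 ± 0.24 (adjusted p 4.59e-08 and 1.76e-09). It had 3.37, 5.11 and 4.03 CPM in NanogKO, then 0.755, 1.02 and 1.15 CPM in NanogKO:Esrrb, and then 0.829, 0.587 and 0.726 CPM in NanogKO:Esrrb:Nanog. In both regions the 6 libraries with Esrrb lay below NanogKO. On the Hoxd13 side of Hox D, 5244 bp from Evx2, a region 20480 bp from Hoxd13 (chr2:74647512-74647745) fell by 1.59 ± 0.28 and 1.49 ± 0.28 (adjusted p 5.12e-05 and 7.9e-05).

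On the Hoxa2 side of Hox A, a region 56680 bp away (chr6:52105093-52105737) had 7.17, 10.1 and 9.22 CPM in NanogKO, then 14.9, 19.0 and 14.04 CPM in NanogKO:Esrrb, and then 19.8, 19.9 and 22.8 CPM in NanogKO:Esrrb:Nanog. The 3 groups did not overlap, and it rose by 0.85 ± 0.14 and 1.23 ± 0.14 over NanogKO (adjusted p 2.04e-05 and 3.69e-08). On the Hoxa13 side, a region 6982 bp from Evx1, a homeobox gene beside the cluster (chr6:52305827-52306516), had means of 10.7, 9.72 and 16.8 CPM and rose by 0.79 ± 0.12 from NanogKO:Esrrb to NanogKO:Esrrb:Nanog (adjusted p 5.85e-05). Far beyond Hoxb13, a region in Igf2bp1 (chr11:95995020-95995104) rose from 0.238 to 1.05 and 1.47 CPM, by 2.12 ± 0.33 and 2.59 ± 0.32 over NanogKO (adjusted p 9.51e-06 and 1.91e-07). A region 6161 bp from Gip (chr11:96017844-96018371) rose from 17.4 to 32.8 CPM between NanogKO:Esrrb and NanogKO:Esrrb:Nanog, by 0.91 ± 0.12 (adjusted p 1.1e-05).

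Other regions of smallest p in the flanks lay beyond Hoxc4, Hoxd13 and Hoxd1. A region 2554 bp from Smug1 (chr15:103171493-103171696) rose by 1.66 ± 0.21 over NanogKO and by 1.30 ± 0.20 over NanogKO:Esrrb (adjusted p 1.99e-07 and 5.32e-05), to a mean of 6.26 CPM. A region 7751 bp from Lnpk (chr2:74506770-74507085) fell by 1.07 ± 0.21 and 1.17 ± 0.21 against NanogKO (adjusted p 0.000159 and 4.56e-05), from 2.82 CPM. A region 10122 bp from Mtx2 (chr2:74886870-74887431) fell by 1.01 ± 0.23 from NanogKO:Esrrb to NanogKO:Esrrb:Nanog (adjusted p 0.00234), from 2.49 to 1.23 CPM.

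The authors' deposited peak lists, 1 per group, covered most Hox regions in each group. A peak overlapped 139 (87.97%), 141 (89.2%) and 138 (87.3%) of the 158 regions in the lists for NanogKO, NanogKO:Esrrb and NanogKO:Esrrb:Nanog, where 75.4%, 81.5% and 73.8% of all regions had one. In all 3 lists 122 Hox regions (77.2%) had a peak, against 55.3% of all regions. A peak in the NanogKO list alone was found at 3 Hox regions, in the NanogKO:Esrrb list alone at 7, and in the NanogKO:Esrrb:Nanog list alone at 10. These are 1.90%, 4.43% and 6.33% of Hox regions, against 10.2%, 8.63% and 5.79% of all regions, so the last share was near the background. Peak names in the NanogKO list are those of replicate 3 of NanogKO, and the list deposited for NanogKO:Esrrb:Nanog carries peak names of NanogKO:Esrrb replicate 3 throughout, so which libraries that list was called on is unclear.

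Genes known to act on or with HOX proteins were read in the same way, over regions in or within 10 kb of them. The TALE homeodomain proteins, which bind DNA with HOX proteins, had 138 regions at 9 genes, with 18 higher and 39 lower, 31 and 42, and 31 and 9 in the Esrrb, combined and Nanog comparisons. The called shares were 41.3%, 52.9% and 29.0%, against 37%, 49.3% and 24.6% of all regions, and the medians -0.21, -0.10 and 0.08. A region in Pknox2 rose from 9.31 to 16.8 CPM between NanogKO:Esrrb and NanogKO:Esrrb:Nanog (0.85 ± 0.12, adjusted p 2.55e-05).

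Of the CDX, ParaHox and Evx genes, homeobox relatives of the clusters, 40 regions at 8 genes gave 4 higher and 5 lower, 12 and 5, and 9 and 2 in the 3 comparisons (22.5%, 42.5% and 27.5% called). A region near Gsx1 fell by 1.65 ± 0.17 from NanogKO to NanogKO:Esrrb:Nanog (adjusted p 8.94e-09), from 8.32 to 2.64 CPM. For the retinoic acid pathway, whose receptors act on early Hox genes, 123 regions at 18 genes gave 9 higher and 30 lower, 26 and 30, and 21 and 7 (31.7%, 45.5% and 22.8% called). A region in the receptor gene Rarg rose from 6.16 CPM to 19.4 and 26.9 CPM (1.66 ± 0.14 and 2.13 ± 0.14, adjusted p 5.95e-10 and 2.36e-12), and one in Rxra from 0.384 to 1.53 CPM between NanogKO:Esrrb and NanogKO:Esrrb:Nanog (1.99 ± 0.27, adjusted p 1.30e-05).

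The Polycomb genes, whose products keep Hox clusters silent, had 281 regions at 29 genes, with 60 higher and 17 lower, 92 and 27, and 47 and 21 (27.4%, 42.3% and 24.2% called). Medians were 0.12, 0.19 and 0.06. A region in Rnf2, the main ubiquitin ligase of the group, had 1.46, 1.10 and 1.58 CPM in NanogKO, then 6.598, 6.30 and 5.32 CPM in NanogKO:Esrrb, and then 10.6, 7.78 and 5.50 CPM in NanogKO:Esrrb:Nanog. It rose by 2.14 ± 0.21 and 2.53 ± 0.21 over NanogKO (adjusted p 1.02e-08 and 1.97e-10). A region in Kdm2b, which brings a Polycomb complex to CpG-rich DNA, rose from 2.60 to 6.26 CPM between NanogKO:Esrrb and NanogKO:Esrrb:Nanog (1.27 ± 0.18, adjusted p 1.76e-05). The Trithorax genes and H3K27 demethylases, which oppose Polycomb, had 68 regions at 11 genes, with 17 higher and 3 lower, 17 and 5, and 6 and 4 (29.4%, 32.4% and 14.7% called). A region in Kmt2c, a histone methyltransferase of enhancers, had 1.76, 1.87 and 2.11 CPM in NanogKO, then 10.9, 13.5 and 10.3 CPM in NanogKO:Esrrb, and then 25.6, 28.5 and 31.1 CPM in NanogKO:Esrrb:Nanog, and rose in every comparison (2.60 ± 0.15, 3.89 ± 0.15 and 1.29 ± 0.13, adjusted p 1.57e-12, 1.21e-15 and 1.46e-07).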

How the data were processed

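The authors deposited raw counts per region for 9 ATAC-seq libraries, and 1 peak list per group whose score column holds the authors' own values, 13 or higher. Coordinates are mm10, per the submitters' processing notes, which list, with no roles, the aligner Bowtie2, the peak caller MACS2 (2.2.0), bedtools (2.26.0), SAMtools (1.4.1), cutadapt, deepTools (4.4.0) and bcl2fastq (2.19.1). The counting tool, any shift of reads for the transposase and any removal of duplicates are not given in the sources used here. Of the 12 samples in the series design, 9 were used, and the rest were not analysed here.

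The test was that of edgeR 4.0.16 (R 4.3.3): 1 fit of group means over all 9 libraries, TMM factors, filterByExpr (157439 regions kept), the quasi-likelihood F test with 6 residual degrees of freedom, and Benjamini-Hochberg adjustment over all regions, called under 0.05. Gene totals are counts summed over regions in or within 10 kb of each of 18329 protein-coding genes and tested in the same way. CPM values use TMM-scaled totals, fold changes are log2 with standard errors (SE), and 95% intervals come from the F test. The RefSeq table (GRCm38.p6, the assembly of mm10) gives no strand, so distances run to a gene's span, and "in" a gene does not tell exons from introns. Peaks were matched by an overlap of at least 1 bp. The fits were tested on simulated data.

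Named regions are, per comparison and cluster, up to 2 called regions in each direction (smallest p first), the most open region of each cluster, every called gene total, and the called region of smallest p per other list and per flank. One such region of the lists is not reported here. The members, lists and rules were chosen with earlier results of these data known. Alternatives were DESeq2 1.42.0 and its size factors, library totals, no filter, a replicate block, only the groups compared, 0 kb and 50 kb windows, each library left out, and peaks of at least the median score or covering 50% of a region. Regions nearer to a gene that is no member were also left out, an alternative chosen after seeing the data. Same-numbered libraries deviated together from their group means (r 0.117 to 0.152 in the Esrrb comparison, 0.105 to 0.146 in the Nanog comparison). For these comparisons the cluster sums were also read in pairs by number. In the combined comparison r was 0.00220 to 0.136, and the sums were not read in pairs. The main tests used group means without any pairing, and the replicate block was only an alternative. The pairing comes from these values, not the labels. No 2 libraries of a group were copies.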

Additional observations from a re-analysis of the deposited data

How the results depend on the processing

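None of the named regions and genes changed sign, but the balance of higher and lower calls did in the combined comparison. With library totals its Hox regions went from 23 higher and 10 lower to 17 and 19 (median 0.08 to -0.02). Its gene totals went from 6 higher and 0 lower to 1 and 2 without NanogKO:Esrrb:Nanog replicate 1 (median 0.04 to -0.03) and to 2 and 2 with regions in genes alone. Counts of called Hox regions moved over 1.5-fold under these settings. Between NanogKO:Esrrb and NanogKO the count of 9 became 14 with the replicate block, 17 with only these groups in the fit, 4 with regions in genes alone and 22 with a 50 kb window. Between NanogKO:Esrrb:Nanog and NanogKO the count of 33 became 15 and 53 with these windows, and between NanogKO:Esrrb:Nanog and NanogKO:Esrrb the count of 23 became 12 with regions in genes alone. These windows hold 102 and 204 regions in place of 158. With single libraries left out, the counts ranged from 4 to 14, 19 to 49 and 13 to 48. Gene totals called were 1 to 3, 3 to 8 and 1 to 9 with single libraries left out, against 2, 6 and 3. With regions in genes alone they were 1 and 1 in the first and last comparison, and with the replicate block 6 in the last. The block, for numbers taken to pair the libraries, ended none of the named calls. With peaks of at least the median score, 63, 71 and 60 Hox regions had a peak in the lists for NanogKO, NanogKO:Esrrb and NanogKO:Esrrb:Nanog in place of 139, 141 and 138. The cause of these shifts was not tested, other than the number of regions in each window. DESeq2 called 8, 33 and 26 regions. Over named regions and genes, 772 of the values under alternatives stayed on their side of the threshold and 75 no longer passed it. Depth limits the weakest regions, since the lowest count of a Hox region in a library was 16.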
